A study of Mus musculus with 8 samples.

Results

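The classical histone deacetylases are zinc-dependent enzymes that remove acetyl groups from lysines of histones and other proteins, and 9 of their genes were examined here in muscle stem cells (MuSCs) of the mouse. They were Hdac1, Hdac2 and Hdac3 of class I, Hdac4, Hdac5, Hdac7 and Hdac9 of class IIa, Hdac10 of class IIb and Hdac11, the class IV member. Every merged H3K56ac peak that touched one of these genes or the 10 kb on either side of it was taken, which gave 81 of the 105600 peaks, or 0.0767%. The gene list was set by name, though with earlier results of these data known, and it leaves out Hdac6 and Hdac8. Of the 81 peaks, 69 touched the gene itself.

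Class I enzymes are mostly nuclear and work as catalytic subunits of corepressor complexes, HDAC1 and HDAC2 in Sin3, NuRD and CoREST and HDAC3 in NCoR/SMRT. Class IIa enzymes have weak catalytic activity of their own, bind MEF2 transcription factors through a long amino-terminal region, and move from nucleus to cytoplasm when phosphorylated, which is a well studied switch of the muscle gene programme. Acetylation of the lysine that H3K56ac names lies where DNA enters the nucleosome and is found at active promoters and enhancers. SIRT6, the enzyme deleted in this study, belongs to the NAD-dependent sirtuins, not to the zinc-dependent family described here, and removes acetyl groups from H3K9 and H3K56.

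The peaks came from chromatin immunoprecipitation and sequencing (ChIP-seq) of freshly isolated MuSCs of C57BL/6 mice. There were 8 libraries in 4 groups of 2 replicates. Control and Sirt6mKO cells each gave an H3K56ac group and an input group, input being chromatin that was sequenced without the antibody. Control animals were wild type and Sirt6mKO animals carried Pax7-ICNCre and Sirt6 fl/fl alleles. The Cre is always active and driven by the Pax7 promoter, so it deletes Sirt6 throughout the skeletal muscle lineage and not in the adult stem cell alone. The study describes the animals as young adult males. The list analysed holds the position of each merged peak and no value for a library or a genotype, so a peak may come from Control cells, Sirt6mKO cells or both, and no comparison between them was made. The list holds no read counts, replicates or peak heights, so the depth behind a single peak is not known and the values below carry no error and no test.

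The labelled cell type was checked on marker genes. All 8 MuSC markers had a promoter peak, from 2720 to 30239 bp wide, and Pax7, the transcription factor that marks these cells, had one of 21301 bp. Promoter peaks were present at 0 of 5 haematopoietic, 3 of 4 endothelial, 2 of 3 fibro-adipogenic and 4 of 4 mature fibre markers. The widest were 12975 bp for endothelial, 9775 bp for fibro-adipogenic and 4349 bp for mature fibre markers, so widths overlapped those of MuSC markers. Of all coding genes 67.8% had a promoter peak, so its presence alone is a weak check of cell type. The cells had been depleted of Sca1+, CD45+ and CD31+ cells and then sorted by flow cytometry for integrin alpha-7 and CD34 or for a reporter, and re-analysis of sorted cells showed high but incomplete purity. Whether chromatin of other cells contributed to the peaks of the deacetylase genes was not tested.

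The promoter sequences below show the contrast on which much of the description turns, between promoters under a peak and those under none. RefSeq windows from 250 bases before to 50 bases after the start of transcription were found for 6 of the 9 genes, not for Hdac1, Hdac3 and Hdac10, and these 6 genes had 10 windows. Of these windows, 6 lay under an H3K56ac peak and 4 did not. CpG dinucleotides are in capitals, all sequences read 5′ to 3′ on the strand of the gene, and positions are on GRCm38, the assembly also named mm10. The first 4 windows lay under a peak and the last 3 under none.
Hdac2, chr10:36974294-36974593, plus strand: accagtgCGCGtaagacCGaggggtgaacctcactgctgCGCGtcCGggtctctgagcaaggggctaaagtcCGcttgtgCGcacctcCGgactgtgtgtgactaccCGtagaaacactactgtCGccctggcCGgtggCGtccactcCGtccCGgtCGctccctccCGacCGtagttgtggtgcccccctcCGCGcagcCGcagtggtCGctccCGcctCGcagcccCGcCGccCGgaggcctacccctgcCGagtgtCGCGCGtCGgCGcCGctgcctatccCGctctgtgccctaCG
Hdac4, chr1:92180292-92180591, minus strand: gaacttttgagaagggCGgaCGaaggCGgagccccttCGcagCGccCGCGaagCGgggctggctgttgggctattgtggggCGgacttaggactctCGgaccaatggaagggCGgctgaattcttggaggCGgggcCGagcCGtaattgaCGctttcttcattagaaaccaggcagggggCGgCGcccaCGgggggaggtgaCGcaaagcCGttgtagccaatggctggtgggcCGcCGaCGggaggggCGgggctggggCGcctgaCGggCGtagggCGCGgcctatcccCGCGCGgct
Hdac5, chr11:102230123-102230422, minus strand: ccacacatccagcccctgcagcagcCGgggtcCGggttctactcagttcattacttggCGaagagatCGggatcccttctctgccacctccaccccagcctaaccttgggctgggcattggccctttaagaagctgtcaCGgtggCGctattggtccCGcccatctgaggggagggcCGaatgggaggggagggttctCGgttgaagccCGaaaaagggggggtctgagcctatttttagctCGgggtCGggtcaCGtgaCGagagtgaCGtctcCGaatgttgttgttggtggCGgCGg
Hdac7 internal start, chr15:97831446-97831745, minus strand: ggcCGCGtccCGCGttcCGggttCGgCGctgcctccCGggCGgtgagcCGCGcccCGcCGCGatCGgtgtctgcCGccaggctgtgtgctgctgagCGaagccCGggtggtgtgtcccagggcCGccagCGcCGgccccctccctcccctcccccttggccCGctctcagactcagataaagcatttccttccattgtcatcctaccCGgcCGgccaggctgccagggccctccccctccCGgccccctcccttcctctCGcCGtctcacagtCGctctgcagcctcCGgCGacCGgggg
Hdac7 upstream start, chr15:97844453-97844752, minus strand: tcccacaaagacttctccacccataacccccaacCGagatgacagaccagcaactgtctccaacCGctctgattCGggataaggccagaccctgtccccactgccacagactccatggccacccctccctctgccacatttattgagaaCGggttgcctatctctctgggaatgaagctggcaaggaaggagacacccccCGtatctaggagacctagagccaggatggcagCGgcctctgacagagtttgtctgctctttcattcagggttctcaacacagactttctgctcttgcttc
Hdac9 inner start, chr12:34528840-34529139, minus strand: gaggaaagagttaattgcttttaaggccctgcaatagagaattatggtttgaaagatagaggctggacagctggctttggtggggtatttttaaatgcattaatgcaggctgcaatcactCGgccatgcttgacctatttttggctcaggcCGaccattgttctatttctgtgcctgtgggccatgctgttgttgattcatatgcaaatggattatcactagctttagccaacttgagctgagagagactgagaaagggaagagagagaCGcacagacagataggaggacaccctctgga
Hdac9 upstream start, chr12:34917046-34917345, minus strand: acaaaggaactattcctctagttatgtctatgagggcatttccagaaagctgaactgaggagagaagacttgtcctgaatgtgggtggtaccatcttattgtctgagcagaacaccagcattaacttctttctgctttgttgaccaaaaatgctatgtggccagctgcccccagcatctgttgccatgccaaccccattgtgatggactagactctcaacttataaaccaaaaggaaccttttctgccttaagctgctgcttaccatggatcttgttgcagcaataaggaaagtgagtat

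The windows under a peak were rich in CpG and the others were poor in it. The Hdac2 window held 36 CpG, the Hdac4 window 32 and the Hdac5 window 18, and the 2 internal windows of Hdac7 held 31 and 35. The Hdac11 window, at chr6:91156565-91156864 on the plus strand, held 22. By contrast the upstream window of Hdac7 held 6 CpG, its most 3′ window, at chr15:97814814-97815113, held 5, and the windows of Hdac9 held 3 and 0. The same relation ran through all 32851 RefSeq promoters, of which 49.2% lay under a peak, with a median of 19 CpG under a peak and 3 elsewhere. Among promoters with 0 to 4 CpG 13.7% lay under a peak, and among those with 30 or more 93.9% did.

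**Figure D1:**
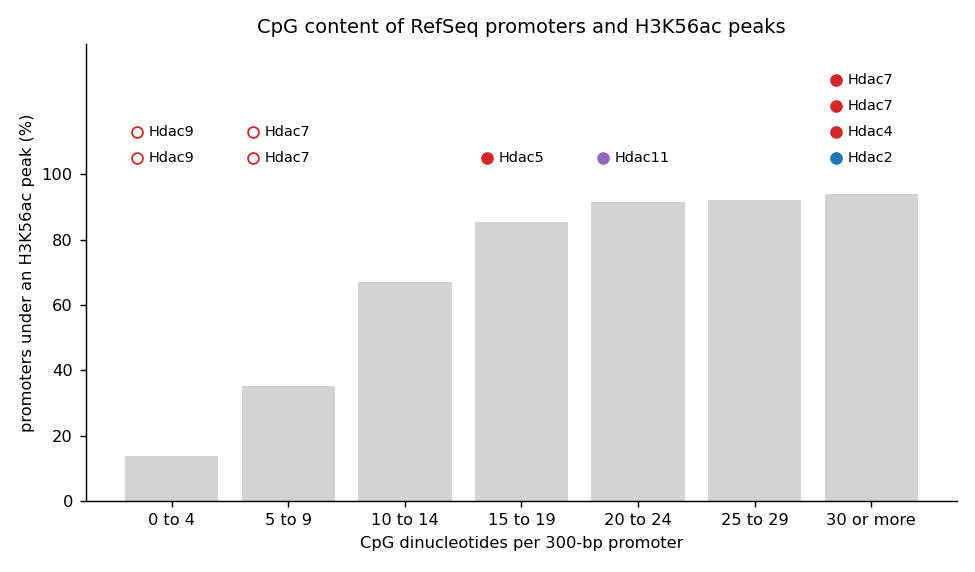
Bars give the share of all RefSeq promoters that lay under an H3K56ac peak (vertical axis, percent) for each range of CpG dinucleotides per 300-bp window (horizontal axis). Circles above the bars mark the 10 windows of the deacetylase genes, coloured by class, filled where the window lay under a peak and open where it did not, and the 4 open circles are those of Hdac7 and Hdac9 at 0 to 9 CpG.

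Short motifs in the same windows were counted on both strands as a description. GGGCGG, the GC box bound by Sp1 and related factors, occurred 5 times in the Hdac4 window. It occurred 1 time in each of the Hdac2, Hdac5 and Hdac11 windows and in 1 internal Hdac7 window. The GC box was present in 35.7% of all promoters and in 59.6% of those under a peak. The Hdac4 window also held 2 CCAAT boxes (CCAAT, in 37.4% of promoters) and 3 copies of TGACG, the core of the CRE (in 20.8%). Among promoters under a peak these shares were 36.5% and 29.5%. The Hdac5 window held 2 of each of these 2 motifs and the Hdac11 window 1 of each. The Hdac5 window held 1 match to the MEF2 consensus, starting at base 231 of the window, and 3.19% of all promoters held such a match. An E-box (CANNTG, in 72.3% of promoters, and counted again when it read CAGCTG) was found 3 times in the inner Hdac9 window and 2 times in each of the upstream Hdac9, most 3′ Hdac7, Hdac5 and Hdac11 windows, the last 2 of which lay under a peak. The upstream Hdac7 window held 1, and the remaining windows held none. CAGCTG, the form preferred by MyoD, was in 16.3% of promoters and occurred 1 time in each Hdac9 window and in the Hdac11 window and 2 times in the most 3′ Hdac7 window.

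A peak in the gene or within 10 kb was found for 9 of 9 deacetylase genes, where 74.9% of the 21938 protein-coding genes had one. A promoter peak, defined as a peak within 3 kb of any annotated transcription start site (TSS), was found for 8 of 9 genes against 67.8% of coding genes, and Hdac9 was the exception. A peak lay over the TSS of the reference transcript of 7 of 9 genes, not of Hdac7 or Hdac9, against 57.5% of coding genes. With 9 genes these counts lie near the background, and they show which genes lacked a peak and no more. Counted over single TSS positions, 35 of 79 in the deacetylase genes lay under a peak (44.3%), as did 49708 of 93513 in all coding genes (53.2%). For TSSs of coding transcripts alone the counts were 17 of 33 (51.5%) and 31705 of 54361 (58.3%).

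The peaks were spread unevenly over the family. Class IIa held 63 of the 81 peaks (77.8%) and class I held 8, and Hdac4 alone held 45 (55.6%). The numbers for the other genes were 9 for Hdac5, 8 for Hdac7, 7 for Hdac11, 4 for Hdac1, 3 for Hdac10, 2 each for Hdac2 and Hdac3, and 1 for Hdac9. Coding genes had a median of 3 such peaks (quartiles 0 and 5). These counts were not scaled to length, and longer genes offer more sequence. Class IIa genes are 35.7 to 869.5 kb long and class I genes 19.2 to 27.3 kb, so the counts do not show a higher density in class IIa. The median width of the 81 peaks was 1825 bp and that of all peaks 974 bp. This pooled value leans on Hdac4, whose 45 peaks had a median of 1902 bp. The median was 885 bp at Hdac5, 970 bp at Hdac11 and 1122.5 bp at Hdac7, and 1616.5 to 3936.5 bp at the remaining genes. Of the 81 peaks 12 (14.8%) spanned 5 kb or more, 8 of them in Hdac4, 3 at Hdac5 and 1 beside Hdac11, and 6.00% of all peaks were that wide.

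**Figure D2:**
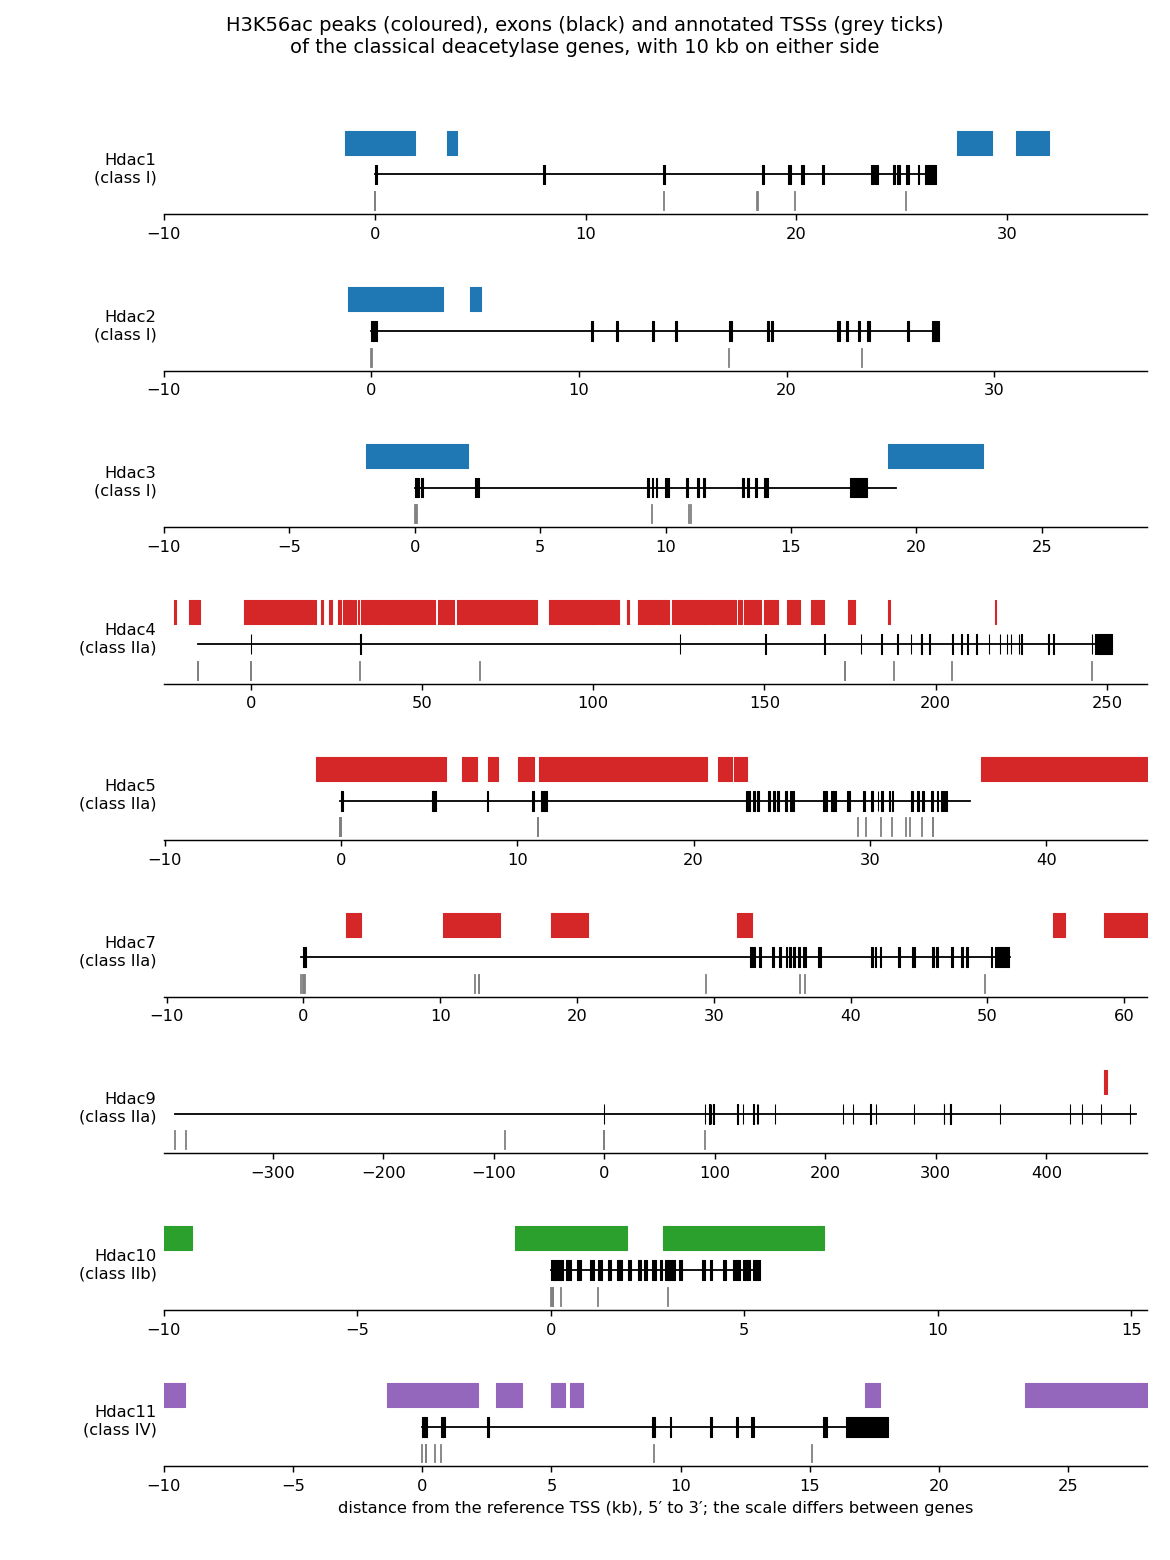
Each row shows one deacetylase gene with the 10 kb on either side, as distance from the reference TSS in kb (the scale differs between rows), with H3K56ac peaks as coloured blocks, exons of the reference transcript in black and annotated TSSs as grey ticks. Peaks of the class I genes sat near the 5′ end, with further peaks beyond the 3′ end of Hdac1 and over that of Hdac3. The 45 peaks of Hdac4 filled much of its 5′ part, and Hdac9 had 1 peak near its 3′ end.

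Class I promoters were much alike in width. The genes were Hdac1 (ENSMUSG00000028800.15, chr4:129516104-129542713, minus strand), Hdac2 (ENSMUSG00000019777.16, chr10:36974544-37001889, plus strand) and Hdac3 (ENSMUSG00000024454.16, chr18:37935844-37955016, minus strand). The widest promoter peak was 3321 bp at Hdac1, 4064 bp at Hdac3 and 4581 bp at Hdac2, and in all 3 genes it was also the peak over the reference TSS. Coding genes with a promoter peak had a median of 3430 bp (quartiles 2242 and 4945 bp), and all 3 class I values lay between these quartiles. The Hdac1 peak ran from 1415 bp upstream to 1905 bp downstream of its TSS and the Hdac2 peak from 1115 bp upstream to 3465 bp downstream. The Hdac3 peak, from 1946 bp upstream to 2117 bp downstream, also covered the TSS of the neighbouring gene Rell2, so its width belongs to a pair of promoters.

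Class IIa promoters differed widely among themselves. The widest promoter peak was 23475 bp at Hdac4, 9543 bp at Hdac5 and 2968 bp at Hdac7, and Hdac9 had none. A promoter peak of at least 5 kb was thus found for 2 of the 9 deacetylase genes, Hdac4 and Hdac5, against 16.5% of coding genes. With Hdac9 entered as 0 the class IIa median was 6256 bp against 4064 bp for class I, but the class IIa range enclosed the class I range. The order of these medians turned when only the reference TSS was used, which gave 3108 bp for class IIa, because Hdac7 and Hdac9 then both entered as 0. It turned as well without Hdac4 or without Hdac5, either of which left 2968 bp.

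Neither of the widest class IIa peaks lay over the start of the main coding transcript. The 23475-bp peak of Hdac4, at chr1:92096756-92120230, was in intron 2 of the reference transcript Hdac4-202 and covered the start of Hdac4-204 and Hdac4-207, transcripts annotated as without a coding sequence. The 9543-bp peak of Hdac5, at chr11:102209370-102218912, lay in introns 4 and 5 and ended 16 bp short of the TSS of the coding transcript Hdac5-209. Over the reference TSS itself Hdac4 had a peak of 6215 bp and Hdac5 one of 7335 bp, which were the widest such peaks of the 9 genes. For coding genes with a peak there the median was 3424 bp.

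The peak over the Hdac4 reference TSS lay almost wholly on the downstream side, but another peak adjoined it upstream. It reached 52 bp upstream and 6162 bp downstream of the TSS, where the medians of coding genes were 1326 and 1791 bp, and a separate 1902-bp peak began 84 bp upstream of the TSS. At Hdac5 the peak ran from 1394 bp upstream to 5940 bp downstream, so that its extra width was downstream too. Hdac10 had 915 and 1968 bp on either side, in a peak of 2884 bp, and Hdac11 had 1377 and 2163 bp, in a peak of 3541 bp. HDAC10 is best known as a polyamine deacetylase of the cytoplasm and HDAC11 as a remover of fatty acyl groups from lysines.

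**Figure D3:**
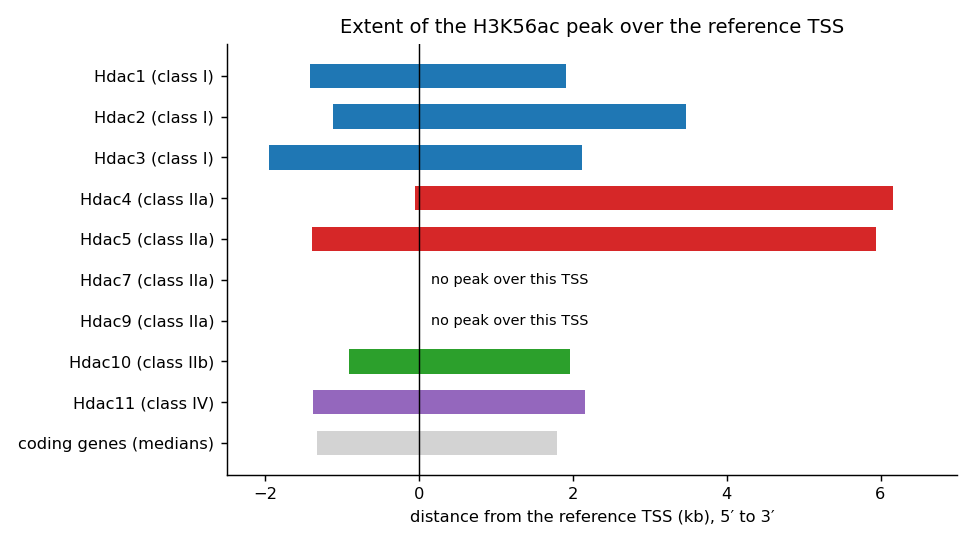
Bars show how far the H3K56ac peak over the reference TSS reached upstream (left) and downstream (right) of that TSS, in kb, for each deacetylase gene, with the medians of coding genes in grey. The Hdac4 and Hdac5 bars reached 6162 and 5940 bp downstream, further than the other bars, and Hdac7 and Hdac9 had no peak at this position. The separate Hdac4 peak just upstream of the TSS is not drawn.

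Hdac7, whose product is studied mostly in vessels and thymocytes, had its promoter peak at an internal start. The gene is ENSMUSG00000022475.19 at chr15:97792664-97844502 on the minus strand, 51.8 kb long. The 2968-bp peak at chr15:97830665-97833632 covered TSSs 12535, 12808 and 12833 bp downstream of the reference TSS, within intron 1 of Hdac7-204, and these starts serve the coding transcripts Hdac7-201 and Hdac7-202 among others. The nearest peak to the reference TSS was 3106 bp away, just outside the 3-kb limit. The peak at the internal starts had 50.9 CpG per kb and a ratio of observed to expected CpG of 0.564, the highest ratio of the 6 peaks in this gene. The internal windows printed and counted above were the CpG-rich ones of Hdac7, and the upstream window was CpG-poor.

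Intronic coverage, the share of intronic bases under peaks, separated the classes more than promoter width did, with the exception of Hdac9. It was 9.68% at Hdac1, 12.4% at Hdac3 and 16.3% at Hdac2. In class IIa it was 67.4% at Hdac5, 55.5% at Hdac4, 18.6% at Hdac7 and 0.288% at Hdac9. So 3 of the 4 class IIa genes lay above all 3 class I genes and the fourth lay below them all. The class medians were 37.0% and 12.4%, and the median of all coding genes with introns was 6.97% (quartiles 0 and 23.1%). At least 50% of intronic bases were covered in 3 of 9 deacetylase genes, Hdac4, Hdac5 and Hdac10, against 10.8% of coding genes. Hdac10, at 85.0%, is only 5.39 kb long, and its 2 peaks spanned most of it.

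The class medians lay further apart away from promoters, though class IIa remained split. Among intronic bases more than 3 kb from every annotated TSS, coverage was 0 at Hdac3, 6.20% at Hdac1 and 8.48% at Hdac2. It was 76.9% at Hdac5, 57.2% at Hdac4, 17.6% at Hdac7 and 0.297% at Hdac9. The value for Hdac11 was 37.8%, from only 2365 such bases, and Hdac10 had no intronic base that far from a TSS. The medians were 6.20% for class I and 37.4% for class IIa, with 0 for all coding genes (upper quartile 9.71%).

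Gene length was set beside these values, since Hdac4 is 266.9 kb long and Hdac9 869.5 kb, where the class I genes are 19.2 to 27.3 kb. Among the 396 coding genes within 20% of the length of Hdac4, intronic coverage had a median of 3.78% and 10 genes (2.53%) reached the value of Hdac4. Among 2204 genes of the length of Hdac5 the median was 7.54% and 44 (2.00%) reached its value. For Hdac7, 393 of 1828 genes (21.5%) did, for Hdac11 544 of 2407 (22.6%), and for Hdac10 171 of 1846 (9.26%). The class I genes were nearer the middle of their length groups, with 28.5% of genes at or above Hdac2, 41.5% at or above Hdac3 and 45.2% at or above Hdac1. Of the genes as long as Hdac9 56.2% reached its value. For promoter width, 0 of the 396 genes of similar length had a promoter peak as wide as that of Hdac4 and 3.58% of those of the length of Hdac5 had one as wide as its own. This width is the widest over all annotated TSSs, and the length groups were not matched for their number. Hdac4 has 11 TSS positions and Hdac5 18, where the median of coding genes is 3.

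**Figure D4:**
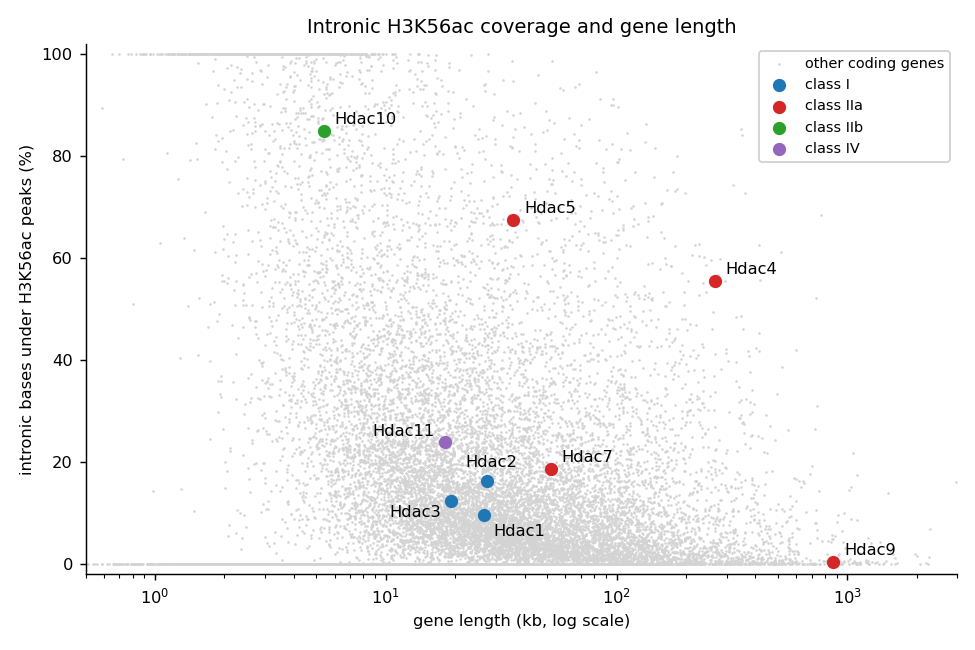
Each point is a protein-coding gene placed by its length (horizontal axis, kb, log scale) and the share of its intronic bases under H3K56ac peaks (vertical axis, percent), with the 9 deacetylase genes in colour by class. Hdac4 at 55.5% and Hdac5 at 67.4% stood above most genes of their length, the class I genes were at 9.68 to 16.3%, and Hdac9 was near 0 at the right.

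Hdac4 is the class IIa member most studied in muscle, where it rises after denervation and represses MEF2 targets. The gene, ENSMUSG00000026313.16 at chr1:91928779-92195699 on the minus strand, held 42 peaks that covered 142.4 kb or 53.4% of it. Of the 41 gaps between these peaks 27 were under 1 kb (65.9%), with a median gap of 482 bp, a narrowest of 5 bp and a widest of 30592 bp. Joining peaks less than 1 kb apart left 15 regions in the gene, the widest of 35864 bp and the next of 28758 bp. The widest ran from 113033 to 148896 bp downstream of the reference TSS, across exon 3, and the next from 54828 to 83585 bp, within intron 2. Besides the 23475-bp peak, peaks of 14263 bp at chr1:92078844-92093106 and 11238 bp at chr1:92046097-92057334 exceeded 10 kb.

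The Hdac4 peaks were concentrated in the first introns. Coverage was 76.9% in intron 1, 85.7% in the 93.3 kb of intron 2, 88.7% in intron 3, 60.6% in intron 4 and 19.1% in intron 5. Introns 1 to 4 together, 166.9 kb, were 81.9% covered. The introns after the fifth, 66.2 kb in all, were 1.44% covered, by a peak in intron 7 and another in intron 17. Over 5 equal parts from the 5′ end, the gene was 61.4%, 87.7%, 84.8%, 31.8% and 1.04% covered. The coding transcript Hdac4-201, which starts 31948 bp downstream of the reference TSS, had no peak over its TSS but lay between 2 of them, the nearer 168 bp away.

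**Figure D5:**
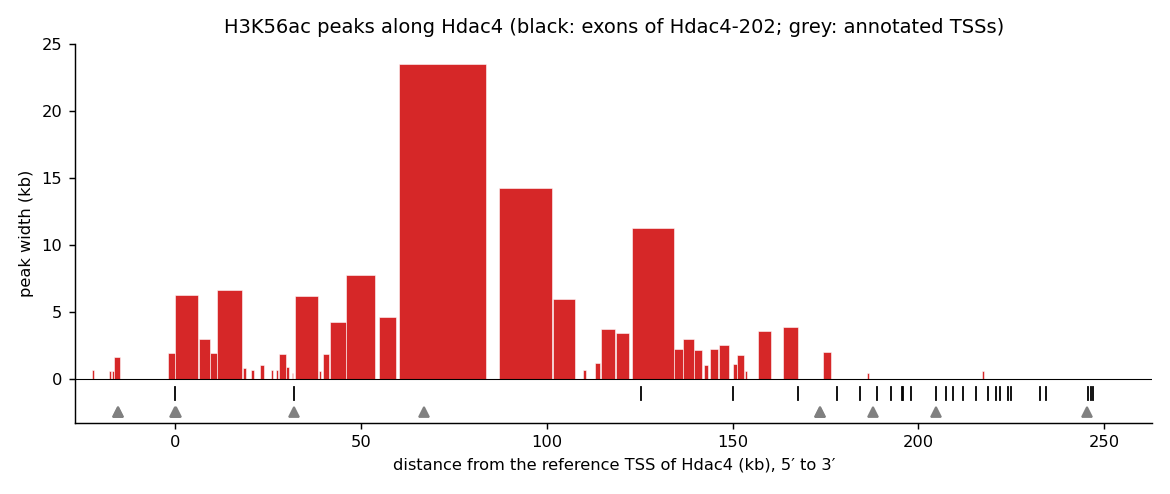
H3K56ac peaks along Hdac4 are drawn as bars at their true position (horizontal axis, kb from the reference TSS, 5′ to 3′) with height giving peak width (vertical axis, kb), exons of Hdac4-202 as black ticks and annotated TSSs as grey triangles. The widest bars, 23475, 14263 and 11238 bp, all lay in intron 2 or across exon 3, and few peaks lay in the 3′ part, where most exons are.

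The same 5′ weighting was seen at Hdac5, a close relative that also represses MEF2 targets in heart and skeletal muscle. The gene, ENSMUSG00000008855.17 at chr11:102194432-102230166 on the minus strand, is 35.7 kb long and was 54.2% covered. Intron 1 was covered over 100% of its length and intron 5, the longest at 11.2 kb, over 93.2%. Introns 1 to 5 together were 83.6% covered, and the later introns held no peak. A further peak of 9430 bp beyond the 3′ end lay over the TSSs of G6pc3 and Lsm12.

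In the class I genes peaks ended early. In Hdac1 and Hdac2 intron 1 was the only intron of the reference transcript with a peak, at 28.6% and 36.0% coverage, and in Hdac3 these were introns 1 and 2. Without the first intron the coverage was 0 for Hdac1, 0 for Hdac2 and 11.2% for Hdac3. Hdac1 had 2 further peaks beyond its 3′ end, one of 1681 bp over the TSS of Marcksl1, and the second Hdac3 peak, of 3809 bp, covered its 3′ end and the TSS of Diaph1. Hdac7 was like Hdac1 and Hdac2 only by intron, since its 6 peaks all touched intron 1, which was 27.0% covered, and its coverage without that intron was 0. In distance the Hdac7 peaks did not end early, because this intron is 32.5 kb long and they reached 32784 bp downstream of the reference TSS.

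Hdac9, which also gives rise to a short form without the deacetylase domain, stood alone in having almost no peaks. The gene, ENSMUSG00000004698.10 at chr12:34047580-34917095 on the minus strand, held 1 peak of 2466 bp, at chr12:34073728-34076193 in intron 24 of Hdac9-204. This peak lay 452111 bp downstream of the reference TSS and 117289 bp from the nearest TSS of another coding gene, Twist1. The 7 TSS positions of Hdac9 were 104690 to 452681 bp from the nearest peak, and all lay in 1 run of 945.6 kb without any. Lack of a promoter peak was not rare in long genes, as 69 of the 230 coding genes of at least 500 kb (30%) had none, and 90 of the 230 had an intronic coverage at or below that of Hdac9.

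Hdac11 had a promoter peak of common width, and its widest peak lay outside the gene. The gene, ENSMUSG00000034245.10 at chr6:91156665-91174692 on the plus strand, was 26.2% covered, with 3 peaks that touched its intron 3. Beyond its 3′ end, at chr6:91180001-91192289, lay a peak of 12289 bp, narrower among the 81 only than the 2 widest Hdac4 peaks, and the nearest TSS of any coding gene was that of Hdac11-203, a transcript of Hdac11 annotated as a retained intron, 8237 bp away. Hdac10, ENSMUSG00000062906.12 at chr15:89123307-89128700 on the minus strand, had its widest promoter peak, of 4170 bp, over the TSS of Tubgcp6 as well. In all, 9 of the 81 peaks overlapped another coding gene and 7 covered the TSS of one.

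Peaks at starts and the other peaks in or near the genes differed in base composition. The 11 peaks over a TSS of their own gene had a median ratio of observed to expected CpG of 0.415. A further 62 peaks lay over no such TSS but in the gene or within 3 kb of one of its TSSs. Their median was 0.124, and that of all merged peaks was 0.214. At Hdac4 the 6215-bp peak over the reference TSS had a ratio of 0.475, and its 1902-bp neighbour upstream 0.549. The 41 Hdac4 peaks of that second kind had a median of 0.121, and the 23475-bp peak, although it covers a TSS, had 0.122. The 7 such peaks of Hdac5 had a median of 0.208, near that of all merged peaks, and the 5 of Hdac7 had 0.171. The median of the 62 peaks is thus largely that of Hdac4. The single Hdac9 peak had 0.120.

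Genes for proteins that work with these deacetylases were set beside them. They were 36 genes of the Sin3, NuRD, CoREST and NCoR/SMRT complexes and of class IIa partners such as the MEF2 factors. All 36 had a promoter peak, and all 36 had a peak over a TSS, for which the share of all coding genes was not counted. The widest promoter peak had a median width of 4297 bp, and in 12 of 36 genes it spanned at least 5 kb. Of coding genes 67.8% had a promoter peak and 16.5% had one of at least 5 kb. The widest were 17348 bp at Mef2d, a transcription factor that class IIa enzymes repress, 9606 bp at Ing1, a Sin3 subunit that reads methylated H3K4, and 8883 bp at Ywhaz, a phosphoserine-binding protein that keeps class IIa enzymes in the cytoplasm. By complex, the median width was 4806 bp for NuRD, 4378 bp for Sin3, 4340 bp for the subunits that Sin3 and NuRD share, 4326 bp for CoREST, 4215 bp for class IIa partners and 3803 bp for NCoR/SMRT, all between the values of Hdac1 and Hdac5. Intronic coverage of the partners had a median of 29.3%, between the class I and class IIa medians.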

How the data were processed

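H3K56ac and input ChIP-seq libraries of Control and Sirt6mKO MuSCs (8 libraries, 2 replicates per group) were made with an Ion Torrent workflow. Per the study's methods, the authors trimmed reads, aligned them with bowtie keeping single alignments, removed duplicates with Picard, called peaks with MACS2, removed ENCODE blacklisted regions and merged the peak sets with GenomicRanges. The labels name FastQC, Bowtie, SAMtools, deepTools and mm10. Merging removes peak heights and library identity, and it can lengthen peaks where calls of different libraries only partly overlap. The deposited list gives, for each merged peak, start and end positions and a score that is 0 in every row, so the depth behind a peak is not known from it, replicates could not be compared and no interval is given.

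Peaks were intersected with GENCODE vM21 genes (1-base minimum overlap) in Python 3.11.15 with numpy 2.4.6 and pysam 0.24.0. A promoter peak lay within 3 kb of an annotated TSS. The reference transcript had the longest coding sequence, then the longest exons. Intronic bases were those in the gene outside every annotated exon. Genes of similar length were those within 20%. Coverage code was tested on simulated data. RefSeq promoter windows (GRCm38.p6) were 300 bases long. Members, gene lists and alternatives were chosen with earlier results of these data known. The named genes were all 9 members, Hdac6 and Hdac8, the 3 partner genes with the widest promoter peaks and neighbouring genes. Pax7 stands for the MuSC markers, and Twist1 was named after its value was seen. Tests planned between Sirt6mKO and Control were not run, because the list has no values per library.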

Additional observations from a re-analysis of the deposited data

How the results depend on the processing

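The class I median promoter width stayed at 4064 bp in 3 of 4 other definitions and was 4581 bp when promoter peaks were summed, and it ranged from 3692.5 to 4322.5 bp when each gene was left out. The class IIa median of 6256 bp became 5152 bp with peaks over a TSS itself, 3108 bp with the reference TSS only, 8575 bp with peaks less than 1 kb apart joined, 12755 bp with widths summed, and 9543 bp over genes with a promoter peak only, an alternative chosen after seeing the data. Leaving out each gene gave 2968 to 9543 bp. It fell below class I with the reference TSS only, without Hdac4 and without Hdac5. The class I median intronic coverage of 12.4% became 11.7% in introns of the reference transcript, 6.20% beyond 3 kb of every TSS and 0 without the first intron, and leaving out each gene gave 11.0 to 14.3%. The class IIa median of 37.0% became 37.9%, 37.4% and 27.0% under these settings, 38.9% with peaks joined and 36.4% with peaks of at least 500 bp, and leaving out each gene gave 18.6 to 55.5%, with 18.6% without Hdac4 or Hdac5. It stayed above class I under all of them, but this median lies between genes that differ widely. Without the first intron the class IIa values were 54.4% at Hdac4, 53.3% at Hdac5, 0.646% at Hdac9 and 0 at Hdac7. Hdac7 and Hdac9 were then below the 11.2% of Hdac3. The count of 81 peaks became 41 with peaks joined and ranged from 69 to 96 with no flank, 20 kb of flank, narrow peaks removed or peaks over other coding genes removed. All 36 partner genes kept a promoter peak when it had to lie over a TSS.

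No paired analysis was possible because no value per library was at hand. For the same reason edgeR and DESeq2, the filter on low counts and leaving out a library were not run. Calls made in 1 library cannot be told apart from calls made in every library.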

Other observations

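The remaining zinc-dependent deacetylase genes of the mouse, Hdac6 and Hdac8, are on the X chromosome and were outside the list of 9. Hdac6, of class IIb like Hdac10, had a widest promoter peak of 929 bp, no peak over its reference TSS and an intronic coverage of 0. A 304-bp peak began 104 bp downstream of that TSS. Hdac8, of class I, had a promoter peak of 2428 bp and an intronic coverage of 0.671%, at a length of 220.7 kb. Its promoter peak was narrower than those of Hdac1, Hdac2 and Hdac3, and its intronic coverage was below theirs. Among 480 coding genes of similar length 80.8% reached the intronic coverage of Hdac8.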
